A study of Mus musculus with 2 samples.

Results

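The genes described here are 10 members of the BCL2 family, the proteins that set whether the mitochondrial route to apoptosis is entered, measured in mouse B cells with and without the microRNA miR-155, as labelled. The members are Pmaip1 (NOXA), Bcl2, Bcl2l1 (BCL-XL), Mcl1, Bcl2l11 (BIM), Bbc3 (PUMA), Bax, Bak1, Bad and Bid, and every probe set that the platform annotation assigns to just 1 of them was used. This gave 29 probe sets for 9 of the 10 members, out of 34945 probe sets for 18193 genes; no probe set carried the single name Bax, which was not analysed here. A probe set is the group of short probes that reads 1 stretch of a transcript on an Affymetrix 3′ expression array.

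The series consists of 2 arrays, 1 per genotype, of mouse B cells on a C57 background from Jackson Laboratory, one labelled mir155 KO and the other mir155 WT. The design text describes B cells that were cultured and activated, whereas the growth protocol describes haematopoietic progenitors of male mice kept for 6 days with G-CSF and stem cell factor. Both samples received cycloheximide, a blocker of translation, at 100 ug/ml for 8 min before harvest. The titles and genotype entries give the assignment used here and the source names give the reverse, so the arrays are called KO-labelled and WT-labelled after their genotype entries, and all signs turn over if the source names are right. Mir155hg, the host transcript of miR-155, had 10.88 on the KO-labelled array and 6.63 on the WT-labelled array, which goes against the genotype labels. It was read by 1 probe set. The value of 6.63 lies just under 6.71, the median over all probe sets that are not array controls, so the size of this difference is uncertain. Whether the Mir155hg probe set lies in the deleted part was not determined here. How many animals contributed to each array was not given in the sources used here. With 1 array per label there is no replicate spread and no test, and each value is a single measurement.

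Proteins of the BCL2 family act on one another at the mitochondrial outer membrane. BAX and BAK1 form the pores that release cytochrome c, the guard proteins BCL2, BCL-XL and MCL1 hold them back, and the BH3-only proteins NOXA, BIM, PUMA, BAD and BID occupy the guards or, in part, activate the pore formers directly. In lymphocytes BIM is a main mediator of death after cytokine loss or antigen receptor signals, NOXA binds chiefly MCL1, and BCL-XL and MCL1 support the survival of activated B cells. miR-155 is a microRNA induced on B cell activation, and it represses transcripts that pair with its seed. Its mature strands are printed because loss of these sequences is what the study compared, with the seed (bases 2 to 8) in capitals, from RefSeq on GRCm38.p6.
mmu-miR-155-5p: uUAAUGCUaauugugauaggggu
mmu-miR-155-3p: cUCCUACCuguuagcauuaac
The 5p strand lies at chr16:84714143-84714165 and the 3p strand at chr16:84714182-84714202, both on the plus strand, and their seeds differ. Sites for either strand in the members' transcripts were not searched here.

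Of the 9 measured members, 2 were lower on the KO-labelled array by 0.5 or more on the log2 scale, Pmaip1 and Bcl2l11, and both encode BH3-only proteins. None of the 9 was higher by that much. Across all 10717 expressed genes 1.31% were lower by 0.5 or more and 0.681% were higher. By 1 or more (2-fold), 1 member was lower, Pmaip1, against 0.14% of expressed genes, and 0 were higher, against 0.0187%. Of any size, 4 members were lower and 5 higher, and 42.1% of expressed genes were lower. The members were chosen with earlier results of these data known, so setting their counts beside these shares is a description and no test. A gene was counted as expressed where the mean of its levels on both arrays reached 6.71, the median over all probe sets that are not array controls, and it took the value of its brightest probe set. The other 7 members lay between -0.08 and 0.11, and the median over all 9 was 0.00, beside 0.03 over all expressed genes. In such bulk RNA, fewer cells of a type and less transcript per cell cannot be told apart.

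**Figure D1:**
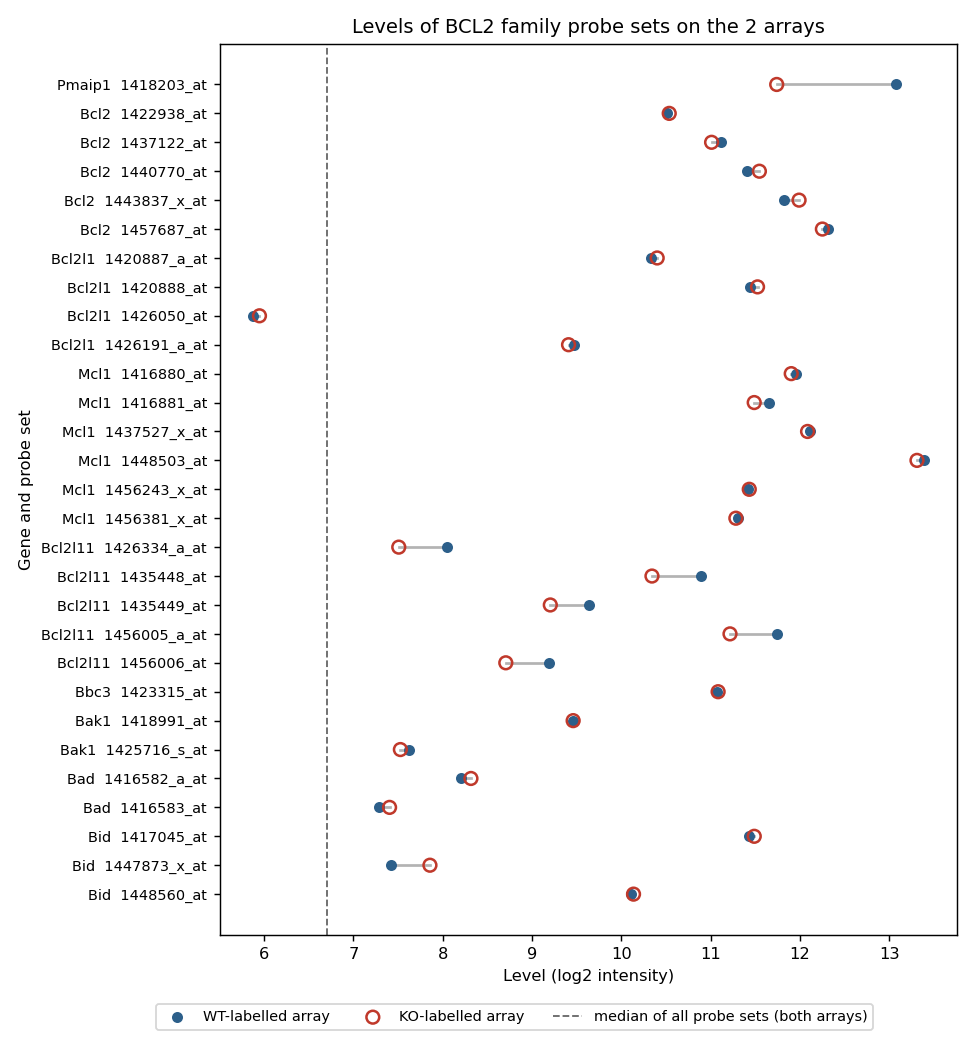
Level (log2 intensity, horizontal axis) of each of the 29 BCL2 family probe sets on the KO-labelled array (open red circles) and the WT-labelled array (filled blue circles), 1 array each; the dashed line is the median of all probe sets, 6.71. The circles of Pmaip1 and of all 5 Bcl2l11 probe sets are visibly apart with the WT-labelled array higher, and 1 Bcl2l1 probe set lies left of the line on both arrays.

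Pmaip1 encodes NOXA, a BH3-only protein that neutralises MCL1 and is induced by p53 and by interferon and stress signals. It was read by a single probe set, 1418203_at. Its level was 11.74 on the KO-labelled array and 13.08 on the WT-labelled array. The level was therefore 2.53-fold lower on the KO-labelled array, a log2 difference of -1.34. Both levels lay far above the array median, so the fold is not limited by the floor of detection. In the order of differences Pmaip1 was the 7th lowest of the 10717 expressed genes. The absence of a second probe set means that no other probe checks this value.

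The genes whose difference was closest to that of Pmaip1 were taken as the 3 on either side in that order, over just these 2 arrays. Below it stood Trim12a (-1.46), Trim30d (-1.48) and Ifi204 (-1.51), and above it Trim5 (-1.31), Il1a (-1.22) and Prdm1 (-1.19). Trim5, a tripartite motif gene, was the nearest, at a distance of 0.03. Ifi204 is an interferon-induced DNA sensor gene, and Prdm1 encodes Blimp-1, which drives plasma cell differentiation. The KO-labelled array had Il1a at 6.70, just under the median level, so its difference from the level of 7.93 on the other array is less certain than that of Pmaip1.

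Bcl2l11 encodes BIM, the BH3-only protein that binds all the guard proteins and can activate BAX and BAK1. It was read by 5 probe sets, and each was lower on the KO-labelled array. The brightest, 1456005_a_at, had 11.22 on the KO-labelled array and 11.74 on the WT-labelled array, a difference of -0.53 or 1.44-fold. Probe set 1435448_at had levels of 10.34 and 10.89 (-0.55). Levels of 9.20 and 9.64 were read by 1435449_at (-0.44). In all 3 the KO-labelled array was the lower one by a similar step. The remaining pair gave 8.71 against 9.19 for 1456006_at (-0.48) and 7.51 against 8.05 for 1426334_a_at (-0.54). Over the 5 probe sets the fold ranged from 1.35 to 1.46, and the differences spanned 0.11.

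As a technical yardstick, the 2 brightest expressed probe sets of a gene were compared in 4906 genes: their differences lay 0.084 apart in the median, with a 95th percentile of 0.31. Every Bcl2l11 probe set lay farther from 0 than that 0.31, which measures agreement between probes and not a gene's distance from 0. Over the central 95% of expressed genes the differences ran from -0.39 to 0.37, and all 5 Bcl2l11 probe sets lay below that range. Among 353 genes with 5 or more expressed probe sets, all were lower in 9.07%, and all were lower by 0.4 or more in 0.567%. Those were 2 genes, Bcl2l11 and D16Ertd472e, a count chosen after the values of Bcl2l11 were seen; 0 genes had all probe sets higher by 0.4 or more. Bcl2l11 ranked 126th from the lowest among expressed genes by its brightest probe set. The yardstick covers the probes on these arrays and not the spread between animals or cultures.

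**Figure D2:**
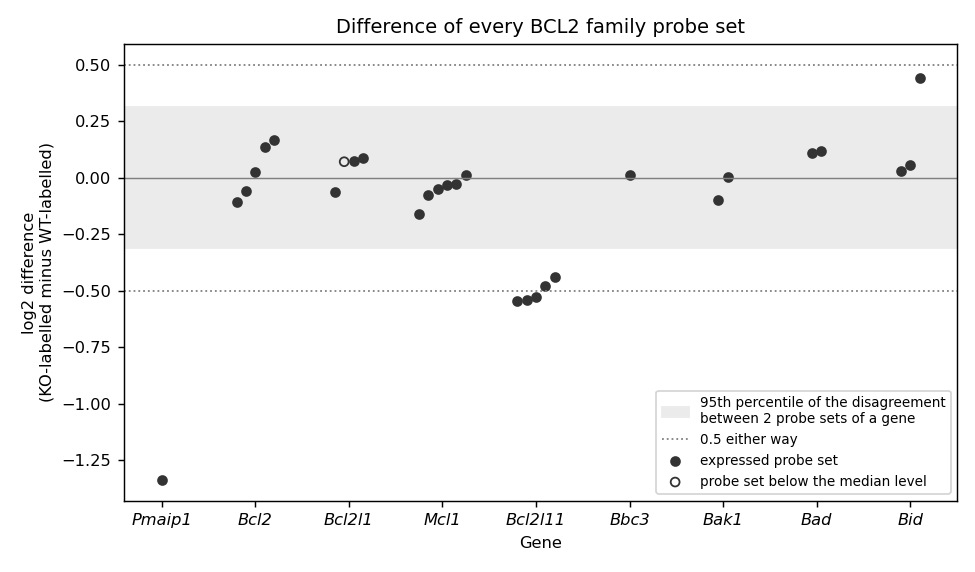
Log2 difference, KO-labelled array minus WT-labelled array (vertical axis), of each BCL2 family probe set by gene; filled points are expressed probe sets, the open point lies below the median level, the grey band spans 0.31 either way (95th percentile of the disagreement between a gene's 2 brightest expressed probe sets) and dotted lines mark 0.5. Pmaip1 at -1.34 and all 5 Bcl2l11 points, between -0.55 and -0.44, fall below the band, and 1 Bid point at 0.44 lies above it. The band is drawn for scale: it measures agreement between probe sets and not a gene's distance from 0.

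The arrays also differed in markers of cell types. For scale, 42.1% of all expressed genes were lower on the KO-labelled array, with a median difference of 0.03. All 11 measured B cell markers reached the median level, and all 11 were higher on the KO-labelled array, with a median of 0.20. Their summed level (log2 of the sum of linear levels) was 15.90 against 15.61. Macrophage and monocyte markers were lower in 6 of 8 expressed genes, with a median of -0.22 and a summed level of 10.66 against 10.87. Fcgr1, a lower gene, reached the median level only through the WT-labelled array (6.69 against 6.89), and Cd68, Cd14 and Lyz2 were just above it on the KO-labelled array, at 6.85 to 6.88. Of the 7 that reached it on both arrays 5 were lower, with a median of -0.24. Dendritic cell markers were lower in 2 of 3, T cell markers in 2 of 4 and plasma cell markers in 2 of 5. The 2 lower plasma cell markers were Prdm1 (-1.19) and Jchain (-0.56). The other 3, Sdc1 (0.07), Irf4 (0.05) and Xbp1 (0.03), were slightly higher, and the median of the plasma cell list was 0.03. Of 10 measured neutrophil markers 2 reached the median level, and Mpo, Elane and Csf3r did not. Of 5 measured stem and progenitor markers 1 did. The part of these marker differences in the values of Pmaip1 and Bcl2l11 was not tested.

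The guard genes were close to equal on both arrays. Their 14 expressed probe sets had 6 higher and 8 lower on the KO-labelled array, and none reached 0.2 in either direction. Bcl2, the founding anti-apoptotic gene of the family, had levels of 12.25 on the KO-labelled array and 12.31 on the WT-labelled array by its brightest probe set, 1457687_at (-0.06). Its 5 probe sets ranged from -0.11 to 0.17, with 3 higher and 2 lower, so no direction was shared. Mcl1, the short-lived guard that NOXA binds, was read by 6 probe sets, with 13.31 against 13.39 for the brightest, 1448503_at (-0.08). Of the 6, 5 were slightly lower, and the range was -0.16 to 0.01.

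Bcl2l1, whose main product BCL-XL is induced in activated lymphocytes, had 11.52 on the KO-labelled array and 11.44 on the WT-labelled array in probe set 1420888_at (0.09). Its expressed probe sets 1420887_a_at and 1426191_a_at differed by 0.07 and -0.07. The remaining probe set, 1426050_at, had 5.95 and 5.88, below the median level on both arrays, and no fold is given for it. It was the single member probe set of 29 that did not reach the median level.

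BH3-only genes did not all share the direction of Pmaip1 and Bcl2l11. Bbc3 encodes PUMA, which, like NOXA, is a p53-induced protein but binds every guard. It had 11.08 on the KO-labelled array and 11.07 on the WT-labelled array in its only probe set, 1423315_at, a difference of 0.01. Bad, the BH3-only gene whose protein is held inactive by phosphorylation under growth factor signals, had 8.32 against 8.21 in 1416582_a_at (0.11). Its second probe set, 1416583_at, gave 7.40 against 7.29 (0.12), and both were thus slightly higher on the KO-labelled array. Bid, which caspase-8 cleaves to link death receptors to mitochondria, had 11.49 against 11.43 in 1417045_at (0.05) and 10.14 against 10.11 in 1448560_at (0.03). A further Bid probe set, 1447873_x_at, had 7.86 against 7.42 (0.44), which the brighter ones did not share. The suffix x marks probes that may also read other transcripts. Among the guards, 1443837_x_at of Bcl2 and 1437527_x_at, 1456243_x_at and 1456381_x_at of Mcl1 carry it too.

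Of the pore formers only Bak1 was read. Its level was 9.46 on both arrays in 1418991_at (0.00), and 7.53 against 7.62 in 1425716_s_at (-0.10). The 2 differences lay 0.10 apart, within the 0.31 that is the 95th percentile of disagreement between probe sets of one gene.

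**Figure D3:**
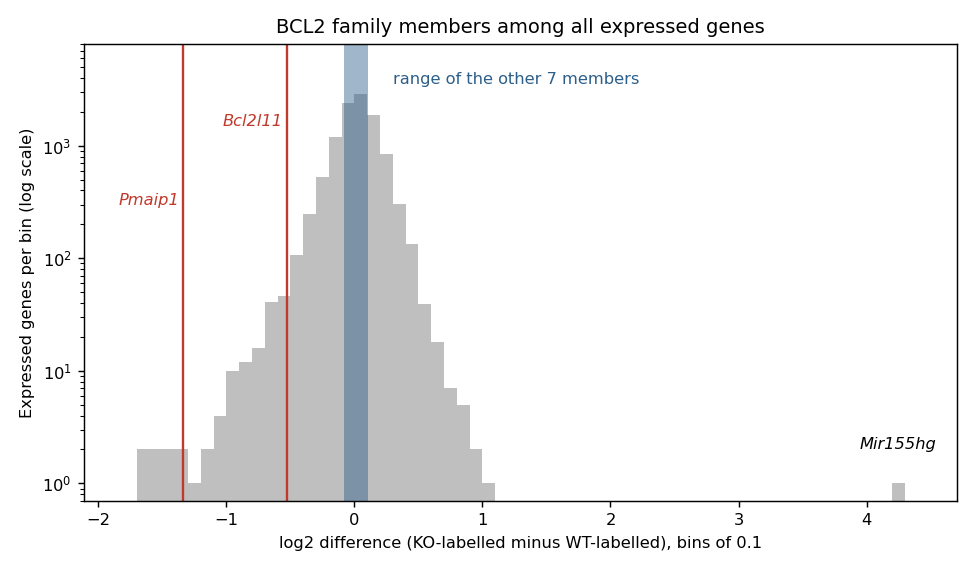
Number of expressed genes (vertical axis, log scale) by log2 difference, KO-labelled array minus WT-labelled array (horizontal axis, bins of 0.1); red lines mark Pmaip1 (-1.34) and Bcl2l11 (-0.53) and the blue band the range of the other 7 measured members (-0.08 to 0.11). Pmaip1 stands in the sparse lower tail, Bcl2l11 at its edge, the other members in the bulk, and Mir155hg alone at the far right.

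Among other genes of the mitochondrial pathway, Apaf1, which encodes the scaffold of the apoptosome that activates caspase-9, differed most. Its brighter probe set had 10.12 on the KO-labelled array and 10.81 on the WT-labelled array, a difference of -0.69 or 1.61-fold lower, and its other probe set had 9.02 against 9.57 (-0.55). Both probe sets were lower, and Apaf1 was the 56th lowest expressed gene. It was the 1 of 17 expressed genes on the apoptosome and caspase list that differed by 0.5 or more in either direction. Over all expressed genes 1.31% were lower and 0.681% higher by that much, so a short list would hold few such genes in any case. Within that list 7 genes were lower and 10 higher, with a median of 0.02, beside 42.1% lower and a median of 0.03 over all expressed genes. Casp6, an effector caspase gene, followed with 12.56 against 13.00 (-0.44), and its second probe set at -0.35 shared the direction. The highest were Dffb (0.32), which encodes the nuclease that cuts DNA in dying cells, and Aifm1 (0.30), a mitochondrial flavoprotein gene. Cycs, the gene of cytochrome c (0.04), and Casp9 (-0.04) were near 0.

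Other genes listed with the family did not differ by 0.5, a size that 1.31% of all expressed genes reached downward and 0.681% upward. Beside 42.1% lower over all expressed genes, 4 of 10 expressed genes on that list were lower and 5 higher. The remaining 1, Bok, had the same value on both arrays, and the list median was 0.00. Bnip3, a BH3-like gene induced by hypoxia that acts in mitophagy, was lowest, at 12.48 against 12.83 (-0.35), and Hrk, a BH3-only gene, was next (-0.19). Bclaf1 (0.07) and Bcl2l12 (0.05) were highest. The probe sets for Bcl2a1, a guard gene of activated B cells with several near-identical copies in mouse, name more than 1 copy and were not used.

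The inhibitor of apoptosis proteins, some of which block caspases, had 4 of 6 expressed genes higher and 2 lower, with a median of 0.12. Over all expressed genes 42.1% were lower, with a median of 0.03. Birc5 (survivin), which also acts in cell division, was highest on the list, at 9.11 against 8.63 (0.48), followed by Birc2 (0.26). Naip2 (-0.09) and Birc3 (-0.02) were lowest. None reached 0.5.

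Genes of transcription factors known to act on BH3-only genes had 7 of 11 expressed members lower, with a median of -0.06. Over all expressed genes 42.1% were lower, with a median of 0.03. The lowest of these factors were Hif1a, the hypoxia-inducible factor gene (-0.35), and Irf7 (-0.33), an interferon regulatory factor gene. For Hif1a the 3 probe sets above the median level on both arrays were lower, from -0.53 to -0.30, and 1431981_at fell short of that level on the KO-labelled array (6.60 against 7.04). The highest were E2f1 (0.28), a driver of S phase entry, and Ddit3 (0.18), the stress factor CHOP, an order that turned over when probe sets were averaged (0.11 and 0.24). Foxo1 (-0.06) and Foxo3 (0.05), whose products are known to activate Bcl2l11, were near 0. Trp53, the p53 gene, was not analysed here. Among 5 expressed genes that control the turnover of family proteins, 4 were higher and 1 lower, with a median of 0.03 that was 0.15 when probe sets were averaged. Fbxw7, part of a ubiquitin ligase that targets MCL1, was the highest, at 11.12 against 10.73 (0.39), with 0.45 in its second probe set. Huwe1, the MCL1 ligase MULE, followed at 0.12 in its brightest probe set, with 0.24, 0.26 and 0.44 in the other expressed ones. The lowest were Usp9x (-0.05), which removes ubiquitin from MCL1, and Btrc (0.03).

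**Figure D4:**
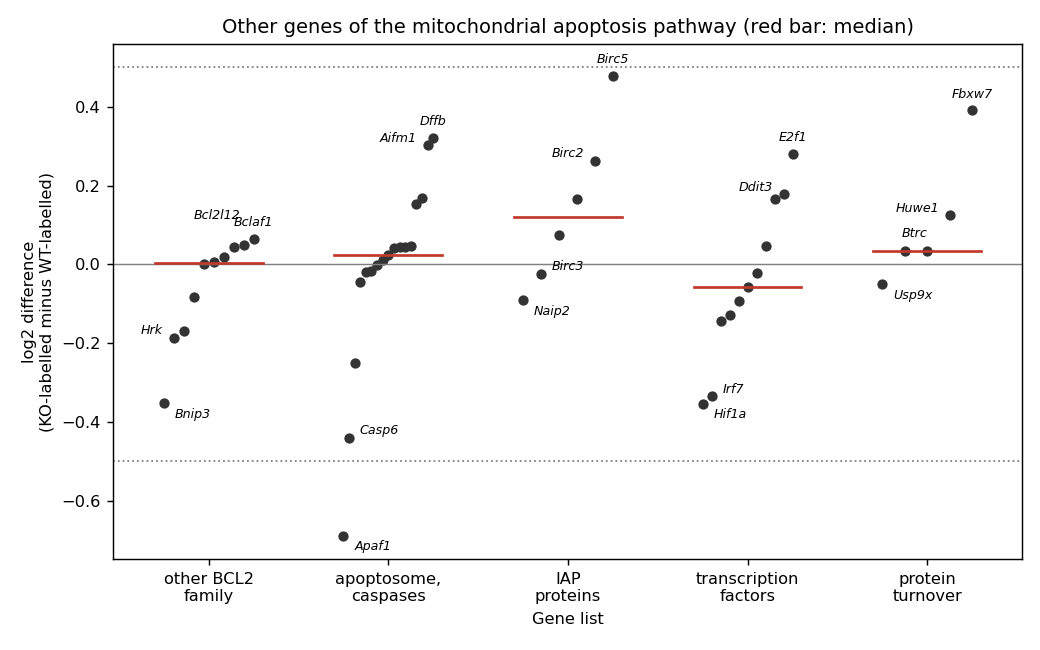
Log2 difference, KO-labelled array minus WT-labelled array (vertical axis), of each expressed gene on 5 lists of the mitochondrial apoptosis pathway; points are genes, red bars list medians, dotted lines 0.5, and the 2 highest and 2 lowest genes of each list are named. Apaf1 (-0.69) is the only point beyond 0.5, and the list medians lie between -0.06 and 0.12. Over all expressed genes 1.31% were lower and 0.681% higher by 0.5 or more.

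Because Foxo factors are known to act on Bcl2l11, the 250 bases before each RefSeq start site of the members were searched for the FOXO motif GTAAACA on both strands. The table held 15 such windows for 9 of the members, Bax included; Pmaip1 was not among them. The motif was in 2 of the 15, 1 of 2 windows of Bcl2l11 and 1 of 3 of Bbc3, and in 3.17% of all 32851 windows. The E-box CACGTG, whose matches did not overlap those of the FOXO motif, was in 2 of the 15, of Bbc3 and Bax, and in 6.02% of all windows. The Bcl2l11 window is printed because that gene differed in all its probe sets, and the Bbc3 stretch because that gene carries the same letters and differed by 0.01. Both are on the plus strand of GRCm38.p6, at chr2:128125788-128126037 and chr7:16310083-16310111, with the match in capitals (reverse strand in Bbc3).
Bcl2l11: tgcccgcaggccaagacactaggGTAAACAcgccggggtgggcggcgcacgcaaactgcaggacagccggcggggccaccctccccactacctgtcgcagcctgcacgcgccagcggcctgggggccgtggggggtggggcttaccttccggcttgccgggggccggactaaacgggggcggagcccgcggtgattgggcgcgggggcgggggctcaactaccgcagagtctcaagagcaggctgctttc
Bbc3: tctggcgggttTGTTTACaaacaatgggg
A match describes letters in a window and not a bound site.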

How the data were processed

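The deposited table holds log2 intensities of 45101 probe sets on 2 arrays, from 3.09 to 15.4; the log2 unit was read from the values, and how the authors summarised and normalized the arrays is not given in the sources used here. Per the labels' protocols, the Affymetrix 3′ IVT Express kit gave the biotinylated cRNA. Once sorted, the 2 columns lay within 0.063 of each other, so the deposited log2 values cannot show a change in total RNA per cell. Of the probe sets that are not controls, 1143 had identical values on both arrays, none of a member.

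Probe sets were named from the platform annotation: 34945 had 1 gene, 932 several, 9160 none and 64 were controls. By Entrez number 34741 matched RefSeq genes of GRCm38.p6, with 0 symbols changed. Differences are KO-labelled minus WT-labelled, and sizes of 0.5 and 1 describe them. The number of arrays limits the precision. All probe sets of members are named; of each pathway list, the 2 highest and 2 lowest expressed genes and those beyond 0.5; and the 3 genes on either side of Pmaip1. Cell type markers are given as counts, and the few named, like Cycs, Casp9, Foxo1, Foxo3, Irf3 and Bok, were chosen after their values were seen. The members and lists were chosen with earlier results of these data known. The counting code returned known shifts put on simulated data, with noise smaller than the spread of differences seen here and shifts beyond 0.5. That run checks the code and not the choice of 0.5. As alternatives, a gene took the average over its probe sets or plain _at probe sets alone; others were quantile normalization, a subtracted loess curve (span 0.3), no filter and a filter at the 75th percentile. Tables were handled with pandas 2.3.3 in Python 3.11.15, curves with statsmodels 0.14.6, numbers with NumPy 2.4.6 and figures with matplotlib 3.10.9.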

Additional observations from a re-analysis of the deposited data

How the results depend on the processing

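Under the 6 alternatives Pmaip1 stayed between -1.36 and -1.34 and Bcl2l11 between -0.56 and -0.51. In each of them these 2 members, and no other, were lower by 0.5 or more, and no member was higher by that much. A change of filter can drop or add a gene but cannot change its value. Averaging or plain probe sets cannot change a gene read by 1 plain probe set. For Pmaip1, therefore, only quantile normalization and the loess curve (both -1.36) could differ from the main value of -1.34. Bad, at a mean level under the 75th percentile of 8.84, was left out by the stricter filter. Members near 0 changed sign with the setting: Bcl2 ran from -0.09 to 0.03, Bbc3 from -0.03 to 0.01 and Bak1 from -0.05 to 0.00. Bid moved from 0.05 to 0.17 when its probe sets were averaged, which takes in the dim 1447873_x_at. Among pathway genes, plain probe sets turned Foxo3 from 0.05 to -0.07 and Irf3 from -0.09 to 0.04, and averaging moved E2f1 from 0.28 to 0.11 and Huwe1 from 0.12 to 0.26. The turnover list's median of 0.03 became 0.15 with averaging and 0.12 with the stricter filter. That of the other genes listed with the BCL2 family went from 0.00 to -0.08 without a filter. The median of the inhibitor of apoptosis list went from 0.12 to 0.00 when probe sets were averaged. No array could be left out and no replicate spread exists. No paired analysis was possible because each label has 1 array. Pmaip1 and Bbc3 rest on 1 probe set each.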
